A study of Mus musculus with 56 samples.

Results

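The transcripts followed here encode the machinery that makes cholesterol and fatty acids. They were a fixed list of 34 genes, looked up by mouse symbol from the NCBI Gene identifiers of the deposited table and kept if the deposited value was at least 1 in at least 80% of the 56 samples. All 34 of 34 passed, out of 16245 that passed among the 17564 transcripts in the table. The list holds 5 regulators of the sterol regulatory element-binding proteins (SREBPs), 7 enzymes of the mevalonate and isoprenoid steps, 11 enzymes of the squalene and sterol ring steps, 1 sterol transport protein, 3 fatty acid synthesis enzymes, 6 elongases and desaturases, and 1 phosphatidate phosphatase. Anterior hypothalamus came from 9-week-old female C57BL/6J mice, which carried no transgene and ate normal chow under 12 h of light and 12 h of dark. For 7 days food was given in the light phase, ZT0 to ZT12 (day time-restricted feeding, DRF), or in the dark phase, ZT12 to ZT24 (night time-restricted feeding, NRF), where ZT0 is lights on. NRF, in which these nocturnal animals eat in their active phase, served as the reference, and there was no group with free access to food. Polyadenylated RNA was sequenced from 4 mice per regimen every 4 h from ZT0 to ZT24, which gave 7 times and 14 groups, and the ZT24 mice were other animals than the ZT0 mice.

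Cholesterol is built from acetyl-CoA through mevalonate, isoprenoids and squalene, which is closed into the sterol ring and then trimmed and reduced to cholesterol. The SREBP transcription factors (Srebf1, Srebf2) wait in the endoplasmic reticulum on their escort Scap, and the Insig proteins hold Scap there when sterols are plentiful. When sterols fall, Scap carries the SREBPs to the Golgi, where they are cut, and the freed part enters the nucleus and turns on genes of sterol and fatty acid synthesis, Insig1 among them. The brain makes its own cholesterol, because lipoproteins of the blood do not cross the blood-brain barrier, and much of it goes into the myelin of oligodendrocytes.

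The deposited values turned out to be a logarithm divided by transcript length, so CPM (reads of a transcript per 1e6 normalized reads) were recovered from them before levels were compared, and differences are given on the log2(CPM + 1) scale. Normalized library size lay between 29591266 and 34493344 reads, and replicate libraries of a group correlated at r from 0.987 to 0.999. The DRF ZT16 libraries 3 and 4 stood apart, with a dependence of level on GC content 4.91 and 6.97 robust deviations from the median library, whereas the other 54 lay between -1.67 and 2.36. Markers of the anterior hypothalamus were present in every mouse, with a summed level of 8 genes of 382 to 934 CPM, against 11.4 to 52.1 CPM for 4 cortical and hippocampal markers. Members ranged widely in level per transcript length. The stearoyl-CoA desaturase gene Scd2 stood highest at 408 CPM per kb, followed by its relative Scd1 at 81.5 CPM per kb. Hmgcs1, which makes the precursor of mevalonate, and the desaturase gene Fads1 came next, both at 62.6 CPM per kb. The sterol reductase genes Tm7sf2 (2.69 CPM per kb) and Hsd17b7 (3.62 CPM per kb) stood lowest. For Scd2, Scd1, Fads1 and Tm7sf2, CPM were recovered with a length found by search. Level per kb used the annotated length, so their ranks are approximate.

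At ZT4, sterol synthesis transcripts were lower in DRF mice, which had then been fed for 4 h, than in NRF mice, which had been without food for 4 h. Of the 34 members, 9 were called lower in DRF at ZT4 and 0 higher (limma, Benjamini-Hochberg adjustment over 16107 transcripts, adjusted p under 0.05), or 26.5% of members against 1.19% of all transcripts called lower in DRF at this time and 3.97% called in either direction. These were Insig1 and 8 of the 18 enzymes from mevalonate to the sterol ring. All 18 of those enzymes had an estimate below 0 at ZT4, as had 51.4% of all transcripts, and their median difference was -0.22 against -0.00 over all transcripts. In these tissue pieces, fewer cells of a type and less RNA per cell cannot be told apart.

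Insig1 (NCBI Gene 231070, chr5:28071412-28078662, GRCm38), which encodes the sterol-regulated anchor of Scap, differed most. Its level at ZT4 was 61.7, 64.5, 72.8 and 63.9 CPM in the 4 DRF mice and 83.9, 107, 90.7 and 113 CPM in the 4 NRF mice. Every DRF mouse was below every NRF mouse, and the difference was -0.57 ± 0.09 (SE, n = 4 mice per group; limma adjusted p = 0.000488), a DRF-to-NRF ratio of 0.674. The DRF group at ZT4 was the lowest of all 14 groups for Insig1, and the NRF group at ZT12 the highest, with 100, 93.7, 121 and 95.9 CPM.

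Among mevalonate enzymes, Mvd, the decarboxylase that yields isopentenyl diphosphate (NCBI Gene 192156, chr8:122433596-122443422), was called at ZT4. It stood at 13, 13.3, 12.2 and 12.3 CPM in DRF and at 15.8, 18.5, 16.6 and 20.4 CPM in NRF, a difference of -0.46 ± 0.10 (SE; limma adjusted p = 0.00912). The groups did not overlap. Idi1, the isomerase of the next step, had a similar estimate of -0.45 ± 0.15 but missed the threshold (limma adjusted p = 0.0795), and its recovered reads were not whole.

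Of the 11 enzymes of the squalene and sterol ring steps, 7 were called. Fdft1, squalene synthase, gave 127, 129, 134 and 125 CPM in DRF against 147, 154, 153 and 162 CPM in NRF (-0.26 ± 0.06, SE; limma adjusted p = 0.00945). As for Idi1, the recovered reads of Fdft1 were not whole. Msmo1, which removes methyl groups from the ring, gave 96.8, 96.4, 99.6 and 90.3 CPM in DRF against 114, 128, 120 and 137 CPM in NRF (-0.37 ± 0.10, SE; limma adjusted p = 0.0268). The difference thus covered both the entry into the sterol branch and the ring steps, without overlap between groups for either gene. Nsdhl, the dehydrogenase that follows Msmo1, gave 35.2, 38.6, 33.9 and 35.6 CPM in DRF against 40.2, 43.9, 42.6 and 45.9 CPM in NRF (-0.26 ± 0.06, SE; limma adjusted p = 0.0142). Dhcr7, the reductase that makes cholesterol from 7-dehydrocholesterol, gave 42.6, 43.2, 41.1 and 41.6 CPM in DRF against 51.1, 55.3, 48.8 and 53.8 CPM in NRF (-0.30 ± 0.08, SE; limma adjusted p = 0.0161). Here too every DRF mouse was below every NRF mouse.

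Sqle, Lss and Hsd17b7 were the other members called, and were chosen for full description after their values had been seen. Hsd17b7, a ketosteroid reductase of the ring steps, gave 12.2, 12.9, 15.7 and 14.1 CPM in DRF against 17.3, 18, 20.1 and 23.7 CPM in NRF (-0.49 ± 0.12, SE; limma adjusted p = 0.0158). Sqle, the epoxidase that acts on squalene, gave 78, 73, 79.3 and 72.1 CPM in DRF against 83.3, 93.4, 91.8 and 97.8 CPM in NRF (-0.27 ± 0.07, SE; limma adjusted p = 0.0231). Both genes had DRF and NRF values that did not overlap. Lss, the cyclase that closes the ring, was the weakest call, with 44.7, 41.8, 43.2 and 38.5 CPM in DRF against 45.1, 47.5, 44.7 and 58.1 CPM in NRF (-0.21 ± 0.06, SE; limma adjusted p = 0.0449), and its groups touched at 44.7 CPM. Over the whole list, every DRF mouse was below every NRF mouse for 16 of 34 members, against 5.5% of all transcripts. The sterol transport gene Stard4 was among the 16, at -0.29 ± 0.09 without passing the test (limma adjusted p = 0.0626).

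**Figure D1:**
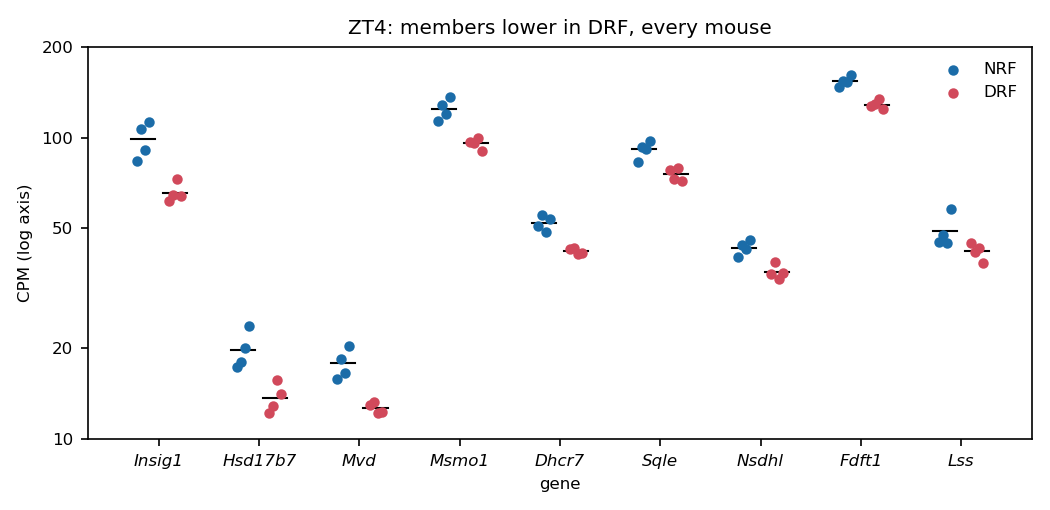
Level at ZT4 of the 9 members called lower in DRF, in CPM on a log axis, with 1 point per mouse (NRF blue, DRF red) and a black line at the group mean. The DRF points sit below the NRF points for each gene, with the smallest gap for Lss.

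Neither the fatty acid members nor Lpin1 were called at ZT4. Acly, Acaca and Fasn, which make the carbon chain, had ZT4 estimates of 0.09 ± 0.10, 0.04 ± 0.06 and 0.06 ± 0.07 (SE), and the 6 elongases and desaturases lay between -0.10 and 0.08, with 0 of these 9 called by limma and 0 at an unadjusted p under 0.05. Lpin1, the phosphatidate phosphatase, lay on the other side, at 0.14 ± 0.05 (limma adjusted p = 0.0933), with every DRF mouse above every NRF mouse. Srebf1, Srebf2 and Scap, themselves at 0.04 ± 0.07, 0.03 ± 0.06 and 0.09 ± 0.05, were not called at ZT4 either. Whether the sterol and fatty acid branches differed from each other was not tested. The count at ZT4 rested on few animals. When 1 mouse of every group was left out by its replicate number, 2, 5, 1 and 1 members were called lower in DRF without replicates 1, 2, 3 and 4, respectively, with Insig1 called each time. The shares of all transcripts called in these refits are not given here, so whether the fall was particular to the members was not tested. Without the 2 DRF ZT16 libraries that stood apart, 11 members were called at ZT4, and the share of all transcripts called also rose, from 3.97% to 6.45%.

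Promoter sequence was searched for motifs over the whole list, called at ZT4 or not. Of the 34 members, 27 had promoter windows of 300 bases (250 before to 50 after the start, RefSeq, GRCm38.p6), 35 windows in all. The CCAAT box, the site of the factor NF-Y that works beside SREBPs, was present on either strand in 22 of the 35 windows (62.9%), against 37.4% of the windows of tested transcripts. Of the 9 members called at ZT4, 7 had windows, and 7 of their 9 windows held a CCAAT box, against 15 of the 26 windows of the other members. The E-box CACGTG was in 7 of the 35 against 9.17%, and the Sp1 motif GGGCGG in 71.4% against 57.4%. The sterol regulatory element TCACNCCAC was found in 1 window (2.86%, Hmgcs1) against 1.13%, and the D-box TTATGNAA in 0 of 35 against 2.19%. The 250 bases before the start are printed below for 5 of the members called at ZT4, chosen to show where the boxes lie, with each CCAAT box in capitals (ATTGG where it lies on the other strand). Not printed are Lss, with 1 box, and Dhcr7, which has 3 windows, 2 of them with 0 boxes.
Insig1 (chr5:28071162-28071411, plus strand): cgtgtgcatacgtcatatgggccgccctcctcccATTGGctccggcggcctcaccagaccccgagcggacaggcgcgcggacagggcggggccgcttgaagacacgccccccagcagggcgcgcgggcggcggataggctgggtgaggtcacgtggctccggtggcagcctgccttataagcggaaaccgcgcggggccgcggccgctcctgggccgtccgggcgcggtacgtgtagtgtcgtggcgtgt
Hsd17b7 (chr1:169969206-169969455, minus strand): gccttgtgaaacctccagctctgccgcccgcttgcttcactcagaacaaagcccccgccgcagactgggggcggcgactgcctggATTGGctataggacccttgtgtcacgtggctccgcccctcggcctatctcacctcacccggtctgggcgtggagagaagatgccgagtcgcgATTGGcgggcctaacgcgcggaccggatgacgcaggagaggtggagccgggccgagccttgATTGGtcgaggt
Mvd (chr8:122443423-122443672, minus strand): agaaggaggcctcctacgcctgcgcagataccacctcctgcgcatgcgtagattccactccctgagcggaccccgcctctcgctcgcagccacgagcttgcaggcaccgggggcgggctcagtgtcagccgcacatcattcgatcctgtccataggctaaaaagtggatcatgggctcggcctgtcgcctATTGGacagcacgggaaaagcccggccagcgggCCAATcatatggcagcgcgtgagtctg
Msmo1 (chr8:64733579-64733828, minus strand): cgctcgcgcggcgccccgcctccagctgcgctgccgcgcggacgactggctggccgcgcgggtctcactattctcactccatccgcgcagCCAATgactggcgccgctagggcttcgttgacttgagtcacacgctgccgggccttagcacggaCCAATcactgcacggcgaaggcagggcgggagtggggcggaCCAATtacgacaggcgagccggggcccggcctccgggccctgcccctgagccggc
Nsdhl (chrX:72918271-72918520, plus strand): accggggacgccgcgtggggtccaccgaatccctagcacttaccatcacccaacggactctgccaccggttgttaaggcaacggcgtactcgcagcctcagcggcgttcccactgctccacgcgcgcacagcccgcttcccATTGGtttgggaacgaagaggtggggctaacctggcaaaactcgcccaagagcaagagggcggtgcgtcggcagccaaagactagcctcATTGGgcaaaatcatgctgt
In the Mvd promoter the boxes began 60 and 27 bases before the start, and in Nsdhl 109 and 20 bases before it. The single Insig1 box began 216 bases before the start.

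The times of lowest level were also set against the start of feeding. Counting each transcript's lowest of 7 group means, 14 of 34 members were lowest at ZT4 in DRF, against 10.7% of all transcripts, and 12 were lowest at ZT16 in NRF, against 12.1%. Both times are 4 h after the start of feeding. For 8 members the lowest mean fell at both, against 2.4% of all transcripts, and these were Insig1, Mvd, Idi1, Fdft1, Sqle, Cyp51, Msmo1 and Stard4. This tally was made after the values had been seen and carries no test. Neighbouring means often lay within their spread, as for Cyp51, whose NRF means ran from 106 to 116 CPM.

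In NRF mice, members followed a daily rhythm about as often as transcripts at large. JTK_CYCLE and Lomb-Scargle tests joined by Fisher's method (Benjamini-Hochberg over 16245 transcripts) called 9 of 34 members rhythmic in NRF (26.5%), against 27.5% of all transcripts. The 9 were Mvk, Mvd, Nsdhl, Dhcr7, Sc5d, Insig1, Insig2, Elovl5 and Elovl6. In DRF, 0 of 34 members were called, against 0.813% of all transcripts, and 2 members, Fdft1 and Acat2, had an unadjusted p under 0.05 (adjusted p = 0.239 and 0.471 by the same joined test). A cosine fit with limma also called 0 in DRF, with 6 at an unadjusted p under 0.05, against 1.19% of all transcripts, and 13 in NRF, against 37.8%.

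The rhythmic members of NRF fell into 2 phases. Insig1 and 4 sterol enzymes peaked in the light phase, the resting and fasting time of NRF mice. Mvk, the kinase that phosphorylates mevalonate (NCBI Gene 17855, chr5:114444264-114460591), was highest at ZT8, with 22.5, 22.2, 21.5 and 22.7 CPM, and lowest at ZT20, with 16.9, 18.6, 17.1 and 15.7 CPM. Its groups at these times were well apart, and its fitted amplitude was 0.19 ± 0.03 with a peak at ZT8.37 ± 0.55 h (SE; adjusted p for rhythm by the joined test = 6.28e-06).
Mvd was highest at ZT8 in NRF, with 20.8, 20, 18 and 20 CPM, and had the largest fitted amplitude of the list, 0.24 ± 0.05, with a peak at ZT7.95. Dhcr7 ran from 50.4, 55.4, 50.5 and 58.5 CPM at ZT8 to 43.1, 38.1, 43.8 and 39 CPM at ZT20, with an amplitude of 0.21 ± 0.03 and a peak at ZT7.22. Nsdhl was highest at ZT8, with 45.2, 43.5, 44.6 and 48 CPM, and peaked in the fit at ZT8.29 with an amplitude of 0.16 ± 0.03. Insig1 had its fitted peak at ZT7.74 ± 0.967 h with an amplitude of 0.20 ± 0.05, so that the 5 peaks lay between ZT7.22 and ZT8.37.

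The other phase lay in the dark, with fitted peaks from ZT18.1 to ZT20.3. Elovl6, which lengthens saturated chains, was highest in NRF at ZT24 with 119, 118, 114 and 122 CPM, with an amplitude of 0.14 ± 0.03 and a peak at ZT20.3. Elovl5, the elongase of polyunsaturated chains, was highest in NRF at ZT20 with 111, 106, 112 and 110 CPM, and peaked at ZT19.9. Both elongases had their lowest mean of the 14 groups in DRF at ZT0, where Elovl6 stood at 84.4, 101, 88.7 and 96.1 CPM and Elovl5 at 89.3, 97.1, 97.6 and 90.4 CPM. Sc5d, the desaturase just before Dhcr7 in the pathway, ran opposite to it, from 117, 118, 117 and 124 CPM at ZT24 to 106, 99.5, 105 and 109 CPM at ZT8 in NRF, with a peak at ZT18.8 ± 1.24 h. Insig2, the Insig whose gene is not a classical SREBP target, also had its fitted peak in the dark, at ZT18.1 ± 1.32 h. The limma cosine fit that gave this peak did not call it rhythmic (adjusted p = 0.0918). Its highest group was NRF ZT20 with 60.9, 62.8, 60.7 and 61.5 CPM, and its lowest was DRF ZT24 with 54.8, 53.2, 54.4 and 51.8 CPM. Acat2, the thiolase that makes acetoacetyl-CoA, was just outside the threshold in NRF (joined test, adjusted p = 0.0655), ran from 56.9, 56.7, 60 and 56.1 CPM in NRF at ZT12 to 46.1, 50.3, 48.2 and 46.7 CPM in DRF at ZT24, and may share reads with a close copy.

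**Figure D2:**
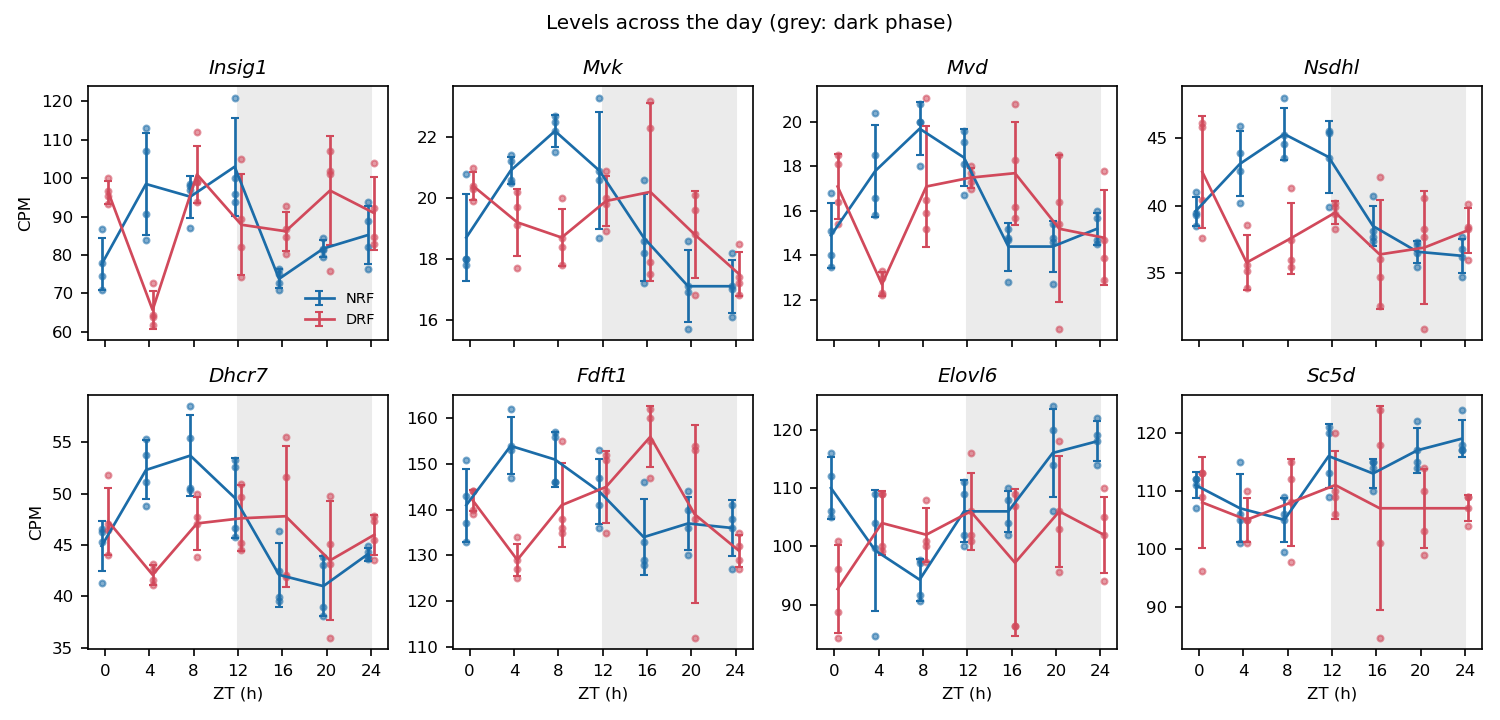
Level in CPM against ZT in hours for 8 members, with 1 point per mouse and lines with bars for the mean ± SD of 4 mice (NRF blue, DRF red), and the dark phase in grey. In NRF, Mvk, Mvd, Nsdhl and Dhcr7 crest at ZT8 while Elovl6 and Sc5d are lowest there, and in DRF Insig1, Mvd, Nsdhl, Dhcr7 and Fdft1 dip at ZT4.

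A direct contrast of ZT8 with ZT20 in NRF called the same 4 enzymes higher at ZT8, namely Mvd (0.43 ± 0.10, SE), Dhcr7 (0.38 ± 0.08), Mvk (0.36 ± 0.07) and Nsdhl (0.30 ± 0.06), and Elovl6 lower (-0.30 ± 0.07). These 5 of 34 compare with 19.5% of all transcripts called in NRF at these times. In DRF the limma contrast called 0 members (1 at an unadjusted p under 0.05), against 0.602% of all transcripts, and the same enzymes gave 0.18, 0.12, -0.01 and 0.03 in that order. The difference between regimens passed its own test for Mvk alone (-0.37, limma adjusted p = 0.0286), against 1.32% of all transcripts.

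Whether the daily course itself differed between regimens was tested with a limma F-test on cosine terms. It called 8 of 34 members (23.5%), against 11.2% of all transcripts. They were Fdft1 (adjusted p = 0.00208), Dhcr7 (0.00284), Mvk (0.00414), Nsdhl (0.00919), Mvd (0.00923), Elovl6 (0.0208), Insig1 (0.0349) and Fdps (0.04), all by limma. A difference in course was thus called for 6 sterol enzymes, Insig1 and 1 elongase. For Fdft1 the fitted amplitude was 0.10 in both regimens, while the fitted peak lay at ZT6.7 ± 0.862 h in NRF and at ZT14.9 ± 0.892 h in DRF, and the highest of its 14 groups was DRF ZT16 with 155, 147, 162 and 160 CPM. The 2 highest of these came from the libraries that stood apart, and the mean of the other 2 mice was 151 CPM, below the 154 CPM of NRF at ZT4. Fdps, which makes farnesyl diphosphate, had fitted peaks at ZT5.56 ± 1.61 h and ZT15.3 ± 1.2 h. It was highest in DRF at ZT16 with 61.1, 70.2, 73.1 and 71.6 CPM and lowest in DRF at ZT24 with 56.1, 55.6, 53.9 and 47.6 CPM. For Fdps, too, the 2 highest values came from the libraries that stood apart. The mean of the other 2 mice was 65.7 CPM, still the highest of the 14 groups. Neither gene was called rhythmic within a regimen by the joined test, whereas the limma cosine fit called Fdft1 in NRF (adjusted p = 0.00143) and not in DRF (0.134). For Dhcr7, Mvk and Nsdhl the fitted amplitude was 0.04, 0.04 and 0.02 in DRF against 0.21, 0.19 and 0.16 in NRF. Without ZT16, the time of the libraries that stood apart, 5 members were called, against 9.78% of all transcripts. Without ZT0, 5 were called, and leaving out replicates 1, 2, 3 and 4 gave 4, 7, 1 and 3. Shares of all transcripts for the refits without ZT0 or a replicate are not given here.

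The fitted peaks of the sterol enzymes, called or not, were counted in windows of the day. In NRF, 16 of the 18 mevalonate to sterol enzymes had a fitted peak between ZT5 and ZT11, against 34.7% of all transcripts. In DRF, 3 of the 18 did, and 11 had one between ZT12 and ZT18, against 27.7% of all transcripts. Without the 2 DRF ZT16 libraries the latter count was 13. Some members had nearly the same fitted peak in both regimens, such as Lss and Srebf1. Lss lay at ZT8.25 ± 1.21 h (SE) in NRF and ZT7.68 ± 8.81 h in DRF, and Srebf1 at ZT11.4 ± 7.03 h and ZT11.3 ± 1.35 h. The course was nearly flat for Lss in DRF (amplitude 0.01 ± 0.03) and for Srebf1 in NRF (0.02 ± 0.03), so these matches say little. These windows were drawn after the peaks had been seen, most of the DRF amplitudes were small (median 0.05), and the peak of a flat course is poorly defined.

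**Figure D3:**
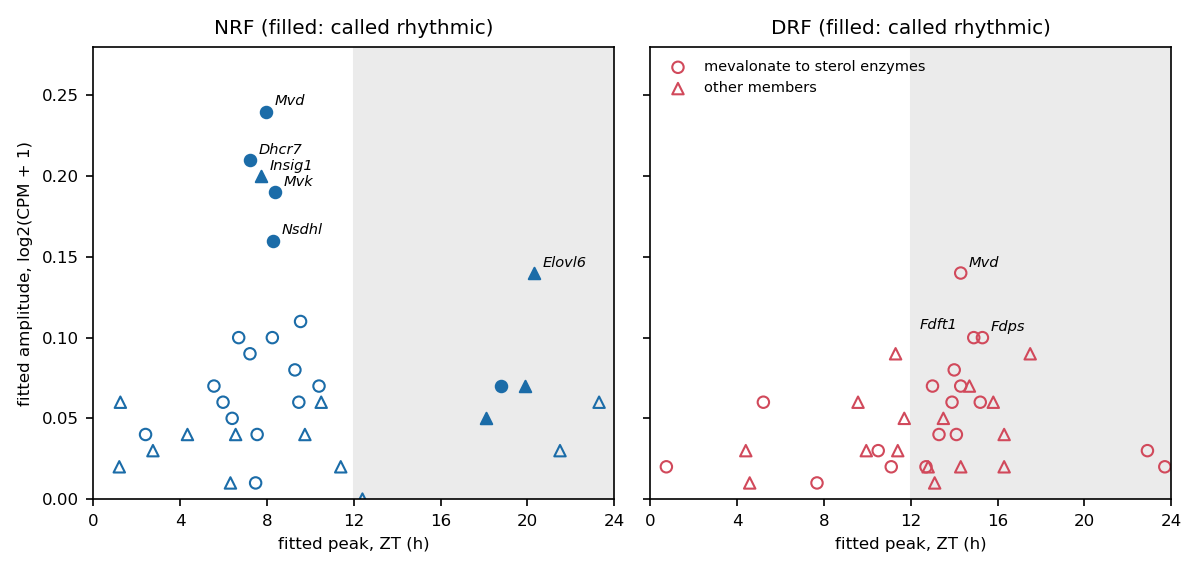
Fitted peak time (ZT in hours) against fitted amplitude on the log2(CPM + 1) scale for the 34 members in NRF (left) and DRF (right), as circles for the mevalonate to sterol enzymes and triangles for the others, filled where called rhythmic. Filled symbols occur in NRF alone, in a light-phase group led by Mvd at 0.24 and a dark-phase group led by Elovl6 at 0.14.

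At the remaining times, members were called different between regimens at ZT0 and ZT16 only. At ZT0, when DRF mice had just reached the end of their fast and NRF mice the end of feeding, Insig1 (0.31 ± 0.09, SE; limma adjusted p = 0.0433) and Lss (0.22 ± 0.06; 0.0295) were higher in DRF and Elovl6 was lower (-0.24 ± 0.07; 0.0341), 3 of 34 against 4.72% of all transcripts. Insig1 was thus higher in DRF at ZT0 and lower at ZT4. At ZT8, ZT12, ZT20 and ZT24, limma called 0 members, against 0.143%, 1.66%, 1.3% and 0.354% of all transcripts, and 5, 10, 8 and 5 members, respectively, had an unadjusted p under 0.05. At ZT24, the same clock time as ZT0, the estimates were 0.09 ± 0.09 for Insig1, 0.07 ± 0.06 for Lss and -0.21 ± 0.07 for Elovl6. At ZT16, 7 members were called higher in DRF, against 6.69% of all transcripts called higher and 19.5% called in either direction. They were Fdps (0.29 ± 0.07, SE), Fasn (0.25 ± 0.07), Fdft1 (0.22 ± 0.06), Srebf1 (0.21 ± 0.07), Srebf2 (0.20 ± 0.06), Acaca (0.17 ± 0.06) and Lpin1 (0.15 ± 0.05). These calls depended on which libraries were fitted. Without DRF ZT16 libraries 3 and 4, 0 members were called at ZT16 (7 at an unadjusted p under 0.05), against 25 of all transcripts (0.155%), and the estimates were 0.06 ± 0.08 for Srebf1, 0.12 ± 0.07 for Fasn, 0.16 for Acaca, 0.15 for Lpin1, 0.17 for Fdft1, 0.09 ± 0.06 for Srebf2 and 0.22 ± 0.08 for Fdps. With all libraries kept and each library's trends with GC content, length and level removed, 7 members were called at ZT16, against 11.7% of all transcripts, Fdps (0.28), Fasn (0.18), Acaca (0.20), Srebf2 (0.13), Fdft1 (0.20) and Lpin1 (0.16) among them and Srebf1 (0.14) not.

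**Figure D4:**
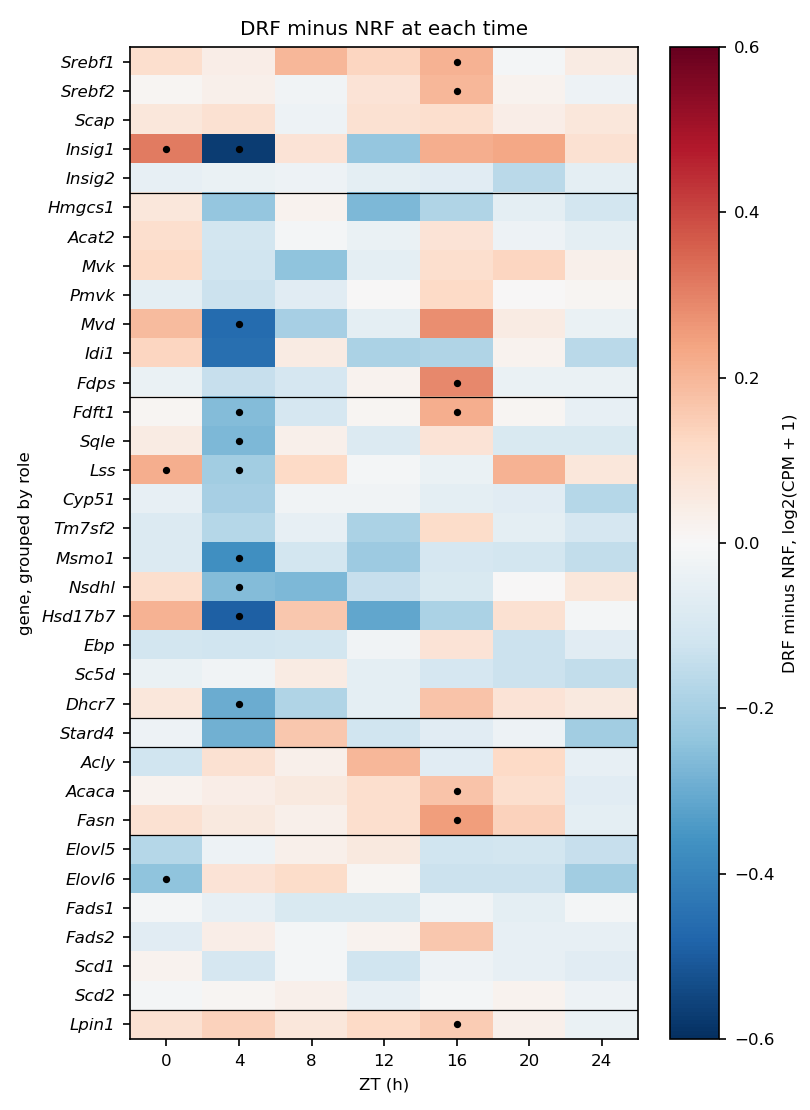
DRF minus NRF on the log2(CPM + 1) scale for each of the 34 members (rows, grouped by role between black lines) at each ZT in hours (columns), with a black dot where the adjusted p was under 0.05. The column at ZT4 is blue (lower in DRF) for the regulator Insig1 (-0.57) and through most mevalonate and sterol rows. Those rows run down to -0.49 for Hsd17b7, with Sc5d at -0.02, and the fatty acid rows are near 0.

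ZT24 repeats the clock time of ZT0 in other mice. Between them, limma called 0 members in NRF (4 at an unadjusted p under 0.05) and 1 in DRF, against 2.2% and 0.59% of all transcripts. The 1 member was Acat2, lower at ZT24 by limma (-0.23).

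Averaged over the 7 times, limma called 12 of 34 members different between regimens (35.3%), against 10.3% of all transcripts. Of these, 4 were higher in DRF (5.51% of all transcripts) and 8 lower (4.79% of all transcripts), by at most 0.16 on the log2 scale. The regulators split. Srebf1 was higher in DRF by 0.10 ± 0.03 (SE, n = 28 mice per regimen; limma adjusted p = 0.0153), a ratio of 1.07. Its highest group was DRF ZT16 with 94.6, 98, 111 and 126 CPM and its lowest NRF ZT24 with 92.4, 90.9, 86.8 and 79.6 CPM, and the 2 highest values came from the libraries that stood apart. Scap was higher by 0.06 ± 0.02, from 96.9, 98.1, 106 and 121 CPM in DRF at ZT16 to 94.4, 90.4, 96.2 and 89.4 CPM in NRF at ZT20. Insig2 was lower by limma (-0.07 ± 0.02). Srebf2, the SREBP most tied to sterol genes, was not called (0.04 ± 0.02, limma adjusted p = 0.219), with 239, 243, 262 and 299 CPM in its highest group, DRF ZT16, and 222, 207, 234 and 237 CPM in its lowest, NRF ZT0. In the DRF ZT16 groups of Scap, Srebf2 and Fasn, too, the 2 highest values came from the libraries that stood apart.

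Of the sterol enzymes, 5 of 18 were lower in DRF on average and 0 higher. Msmo1 differed most, at -0.16 ± 0.04 (SE; limma adjusted p = 0.00498), a ratio of 0.892, and its highest group was NRF ZT12 with 125, 120, 139 and 123 CPM. Hmgcs1 was lower by limma (-0.11 ± 0.04), from 320, 300, 405 and 342 CPM in NRF at ZT12 to 290, 293, 220 and 203 CPM in DRF at ZT16, where the 2 lowest mice were the libraries that stood apart. Cyp51, the demethylase of lanosterol, was lower (-0.09 ± 0.03, limma), from 115, 110, 112 and 126 CPM in NRF at ZT24 to 102, 96.9, 101 and 94.3 CPM in DRF at ZT4. Nsdhl (-0.08) and Ebp, a sterol isomerase (-0.07), were the others. In the fatty acid branch, Fasn, fatty acid synthase, was higher in DRF by 0.09 ± 0.03 (limma adjusted p = 0.0214), with 386, 395, 437 and 507 CPM in DRF at ZT16 and 391, 341, 359 and 350 CPM in NRF at ZT20. Lpin1, the phosphatase that yields diacylglycerol, was higher by 0.08 ± 0.02, whereas Elovl5 (-0.07) and Fads1 (-0.05) were lower. Scd2, the most abundant member, differed by -0.01 ± 0.01 and ran between 2064 and 2417 CPM over all mice.

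**Figure D5:**
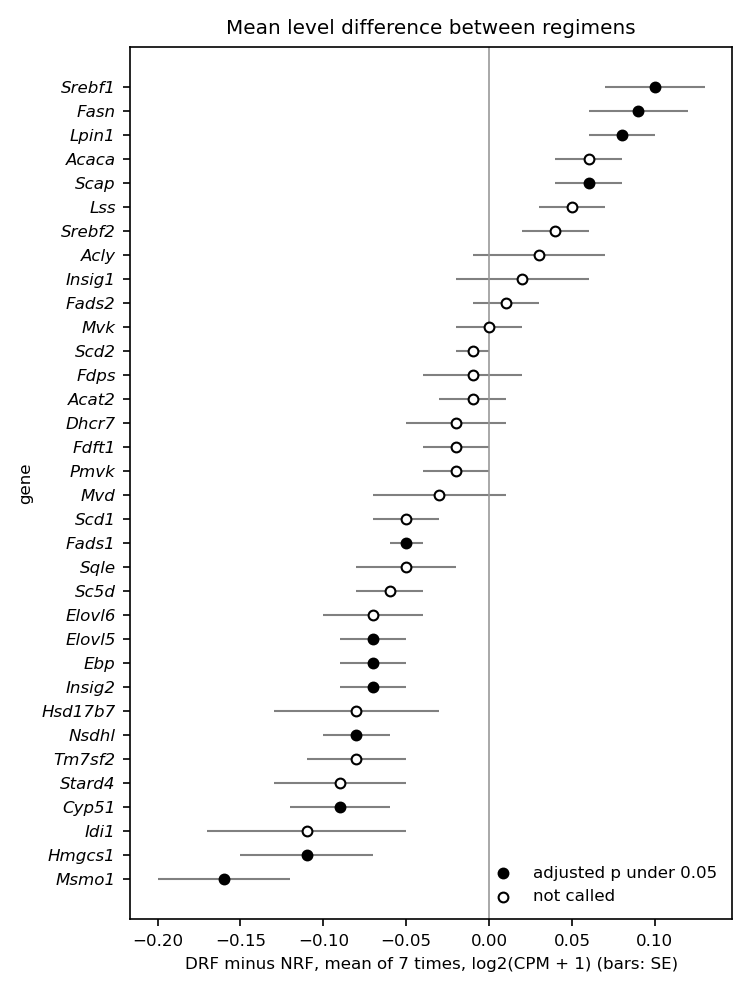
DRF minus NRF averaged over the 7 times on the log2(CPM + 1) scale, with bars of ± 1 SE, for the 34 members in order of the difference, filled where the adjusted p was under 0.05. The differences run from -0.16 for Msmo1 to 0.10 for Srebf1.

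These mean differences depended on library composition. Without the 2 DRF ZT16 libraries 8 members were called, against 10% of all transcripts. Srebf1 (0.08) and Msmo1 (-0.12) were among them, whereas Hmgcs1, Cyp51, Scap, Fasn and Elovl5 were not. Replicates left out in turn gave 5, 16, 3 and 2 members. Shares of all transcripts for these replicate refits are not given here, so whether the changes were particular to the members was not tested. After each library's trends with GC content, length and level were removed, 4 members were called, near the 8% of all transcripts called then, with Srebf1 (0.07), Msmo1 (-0.14) and Fads1 (-0.05) among them. Markers of mature oligodendrocytes moved the same way as the sterol enzymes. Of 10 such markers, 6 were called lower in DRF on average, against 4.79% of all transcripts, with a median difference of -0.15. Their summed level ran from 5646 to 9243 CPM in NRF (median 6909) and from 4322 to 8906 CPM in DRF (median 6177). At ZT4 their median difference was -0.14 with 1 of 10 called (Opalin, lower in DRF), against 1.19% of all transcripts called lower. The summed level at ZT4 was 6153 to 7925 CPM in NRF and 5921 to 7124 CPM in DRF, which overlapped. In NRF 6 of the 10 were rhythmic by the joined test, against 27.5% of all transcripts. Their summed level in NRF was highest at ZT12 (mean 8276 CPM) and not at ZT8 (6496 CPM). The part of oligodendrocytes in the member differences was not tested.

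Other genes of the same pathways gave the wider context. Over all transcripts, 27.5% were rhythmic in NRF, 0.813% were rhythmic in DRF and 3.97% were called at ZT4. In mean level, 4.79% of all transcripts were lower in DRF and 5.51% higher. The NRF rhythm counts of the 3 lists below lay near the share of all transcripts. Of 12 other sterol and isoprenoid genes, 0 were called at ZT4 by limma (3 at an unadjusted p under 0.05), 4 were rhythmic in NRF and 0 in DRF, and 1, the SREBP-cutting protease gene Mbtps1, was higher in DRF on average (0.06). Of 20 other fatty acid genes, 0 were called at ZT4 (4 at an unadjusted p under 0.05), 6 were rhythmic in NRF and 2 in DRF, and 6 were lower and 1 higher in DRF on average. The 1 was Acacb, the mitochondrial acetyl-CoA carboxylase (0.15, limma adjusted p = 0.00119), which was rhythmic in both regimens. Its fitted peak lay at ZT7.56 in NRF and at ZT20.9 in DRF, and its daily course differed between regimens (limma F-test, adjusted p = 3.21e-05). Of 12 sterol handling genes, 4 were rhythmic in NRF and 0 in DRF. Of these, Soat1, which esterifies cholesterol for storage, was higher in DRF at ZT4 (0.27, limma adjusted p = 0.0378), opposite to the synthesis enzymes, and Lpcat3, a phospholipid acyltransferase, was lower (-0.23, 0.0334). Lrp1, a lipoprotein receptor, was among the 2 higher in DRF on average (0.14). For the marker lists other than mature oligodendrocytes, mean level calls compare with 10.3% of all transcripts. They went both ways for oligodendrocyte precursors, 2 of 5 (Cspg4 0.11, Enpp6 -0.31), and astrocytes, 2 of 7 (Aldh1l1 0.09, Aqp4 -0.21). Neurons, 3 of 7, were also mixed (Rbfox3 0.09, Snap25 -0.08, Stmn2 -0.08). Calls were 1 of 5 for microglia (P2ry12 -0.13) and 1 of 5 for endothelium (Ly6c1 -0.11). There were 0 for choroid plexus and meninges, anterior hypothalamus, and cortex and hippocampus.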

How the data were processed

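RNA of 56 mouse anterior hypothalami was sequenced as paired ends. According to the study's methods, the authors mapped reads to GRCm38.p6, quantified them with RSEM, normalized them with TMM in edgeR and converted them to values called TPM. The deposited score behaved otherwise: each value equalled log2(CPM + 1) divided by transcript length and rescaled to a common total. Solving for the scale at which 1108 low transcripts held whole reads gave CPM, and 15360 of 17564 transcripts came out whole (within 0.02 reads in at least 90% of mice). Fdft1, Idi1 and Acat2 did not, and Scd1 did in part. Their CPM rest on annotated or estimated lengths. Reads of Tm7sf2, Fads1, Fads2 and Scd2 came out whole, but at a length found by search and not at the annotated one.

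A transcript was kept when 80% or more of the mice had a deposited value of 1 or higher. Rhythm (20 to 28 h) was tested on deposited values with JTK_CYCLE and Lomb-Scargle p-values joined by Fisher's method. All other tests used limma 3.58.1 in R 4.3.3 with the trend option on log2(CPM + 1). Contrasts between groups used 1 mean per group and 1 spread for the 56 mice. The F-test for a difference in rhythm, the fitted peaks and the amplitudes used a 24-h cosine per regimen, fitted to all 56 mice. Calls of the cosine fit within a regimen used the 28 mice of that regimen alone. p-values were adjusted by Benjamini-Hochberg over all transcripts, and 0.05 was the threshold. Both procedures were tested on simulated data. The members and gene lists were chosen with earlier results of these data known. Values were given mouse by mouse for the 5 regulators, the 10 members with the smallest p for rhythm in NRF, the 8 with the smallest p for a difference in rhythm and the 5 with the largest called mean difference, at their highest and lowest group means. Alternatives left out replicates, times or libraries, blocked by replicate number, or changed the filter, scale or centring.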

Additional observations from a re-analysis of the deposited data

Results flagged for a closer look

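The daily course differed between regimens by the limma F-test for Fdft1 (adjusted p = 0.00208), Dhcr7 (0.00284), Mvk (0.00414), Nsdhl (0.00919), Mvd (0.00923), Elovl6 (0.0208), Insig1 (0.0349) and Fdps (0.04). For Mvk, the ZT8 minus ZT20 difference changed by -0.37 on the log2 scale from NRF to DRF. Of the 51 groups of 4 mice given mouse by mouse, 1 had a mouse far from the other 3 by Dixon's criterion, which chance exceeds in about 1 of 20 groups: Sc5d in NRF at ZT24, at 124 CPM against 117, 118 and 117 CPM.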

How the results depend on the processing

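No call of a single member with a direction reversed in 456 refits of 38 calls, and 131 of these refits lost the threshold. The 8 calls of a difference in rhythm, which has no direction, lost it in 29 of 120 refits. With 1 replicate number left out, which removes 14 mice, the members called ranged from 5 to 8 for rhythm in NRF, 1 to 7 for a difference in rhythm, 2 to 16 for mean level, 1 to 20 for the pairs of member and time point (19 with all mice), 1 to 5 lower in DRF at ZT4, 0 to 2 for the regimen difference in ZT8 against ZT20, and 0 to 1 for ZT24 against ZT0. With library trends removed, 14 members were rhythmic in NRF, 4 differed in mean level (against 8% of all transcripts), 8 between ZT8 and ZT20 in NRF, and 2 in that contrast between regimens. Calls over all transcripts changed too: for a difference in rhythm they went from 11.2% to 17% with library trends removed. Where no share of all transcripts stands beside a count in this section, its rise or fall is not shown to be particular to the members. On log2(deposited value + 1) the counts were 7 for mean level, 8 for ZT8 against ZT20 in NRF and 0 for ZT24 against ZT0. With each library centred on its median, 0 members were called for the regimen difference in ZT8 against ZT20 and 0 for ZT24 against ZT0. Without the 2 DRF ZT16 libraries that stood apart, 8 were called for ZT8 against ZT20 in NRF and, in an alternative chosen after seeing the data, 4 for ZT24 against ZT0. For the difference in rhythm, 5 were called without ZT0 and 5 without ZT16 (against 9.78% of all transcripts), the latter also chosen after seeing the data. Lomb-Scargle alone called 0 members in NRF and 0 of all 16245 transcripts. Rhythm in DRF called 0 members under each of 17 alternatives, and ZT8 against ZT20 in DRF under each of 12.

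Same-numbered mice did not deviate together (median r 0.011 over 364 pairs, against -0.004 over 1092 pairs of unlike number). With a replicate block, 11 members were rhythmic in NRF, 8 differed in rhythm, 13 in mean level and 17 pairs of member and time point were called. The precision at 4 mice per group differed between genes: at ZT4 Idi1 (-0.45 ± 0.15) was not called and Mvd (-0.46 ± 0.10) was.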
